A study of Oryza sativa with 12 samples.

Results

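The comparison described here is the leaf response of wild-type rice to phosphate withdrawal, that is, WT no Pi against WT control. It uses 6 of the 12 libraries of the series, and 20833 of the 39967 genes in the deposited table, those that reached an FPKM of 1 in 3 or more of these 6 libraries. FPKM is the number of fragments counted for a transcript relative to its length and to the library size, and the values of a gene's transcripts were added up. WT is the japonica rice cultivar ZH11. In the WT no Pi group, plants were moved at an age of 3 weeks from half-strength MS medium to the same medium lacking phosphate (Pi), and leaves were harvested on day 3. WT control leaves are labelled as untreated, and the labels give neither their age nor their day of harvest, so the effect of Pi cannot be told apart from that of transfer or age. The 3 phr2 no Pi and 3 phr2 control libraries come from a mutant of PHR2, a MYB-type regulator of Pi signalling, under the same 2 media, and enter through the shared estimate of spread and a side-by-side reading at the end. The labels do not say whether replicates are separate plants or pools, so the p-values speak only of the spread among these libraries, which may be technical.

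Phosphate is needed for nucleic acids, phospholipids, ATP and the sugar phosphates that carry carbon out of the chloroplast. Plants short of Pi are known to raise Pi transporters, acid phosphatases and SPX proteins, to replace phospholipids by galactolipids and sulfolipids, and to move Pi out of old leaves. In leaves, photosynthesis and sugar phosphate metabolism are coupled to Pi through the exchange of triose phosphate for Pi at the chloroplast envelope. Autophagy and leaf senescence recycle nutrients, including those of the chloroplast, through the vacuole and the peroxisome.

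The 6 WT libraries held 10137241 to 13122430 reads. Leaf markers were abundant in both groups: of the FPKM sum, the marker genes of green leaf mesophyll took 3.65, 3.54 and 3.33% in WT no Pi, against 5.26, 8.32 and 6.66% in WT control, while the root and endodermis markers took at most 0.0121% in any library. Of 15 such root genes 4 were kept, the silicon channel gene LOW SILICON RICE 1 at 28.1, 29.5 and 17.9 FPKM in WT no Pi and 209, 61.6 and 34.8 FPKM in WT control among them. The libraries within a group were not alike. On the first principal component of the 6 libraries (46.27% of the variance) the WT no Pi libraries lay at 35.2, 64.02 and 94.48, and the WT control libraries at −127.79, −78.57 and 12.65, so that WT control replicate 3 was the nearest of its group to the no Pi libraries. The FPKM sum was 1162550 to 1457880 in WT no Pi and 1410690 to 2292700 in WT control. The 10 most abundant genes took 6.53% to 7.12% of the reads in WT no Pi and 8.03% to 13.5% in WT control. The library labelled phr2 no Pi replicate 3 correlated at 0.968 with WT no Pi replicate 2 across genes and at 0.945 with WT control replicate 3. The total of genes called and the comparison with phr2 are therefore also given without it. Where counts within a function list leave it out, a WT library is left out with it.

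In all, 642 genes (3.08% of those kept) passed limma's test at an adjusted p under 0.05. Of these 264 (1.27%) were higher and 378 (1.81%) lower in WT no Pi. The ranges of the 2 groups did not overlap for 5288 genes (25.4%), of which 2498 (12%) were higher and 2790 (13.4%) lower in WT no Pi. The median log2 change of all genes was −0.02. With the libraries brought to equal FPKM sums this median moved to 0.42, and 1112 genes passed as higher and 188 as lower. With limma-voom on the reads recovered from the FPKM values the median was 0.47, with 1108 higher and 164 lower. A function is therefore read below against the median of all genes on the same scale. Counts of genes that rose or fell on either of these 2 scales are to be read beside the totals above, out of 20833 genes. The calls lean on the libraries: limma called 0 genes from the 6 WT libraries alone (4327 at an unadjusted p under 0.05). Left out one at a time, WT no Pi replicates 1, 2 and 3 gave 5, 794 and 1 genes, and WT control replicates 1, 2 and 3 gave 1, 0 and 3351. Of the phr2 libraries, 5 gave 64 to 205 when left out, and phr2 no Pi replicate 3, as labelled, gave 575. Left out together with WT control replicate 1, that phr2 library gave 145, and together with WT no Pi replicate 2 it gave 815. The values in every library are therefore given for the genes each function turns on, and a gene without overlap of the groups is counted apart from one that passed.

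Annotated genes were placed in 81 function lists by words in their names and descriptions, and in 8 lists by the cell compartment in their Swiss-Prot names. Across 28 alternative settings 50 of the 81 function lists kept their side of the median of all genes, 16 above it and 34 below it. Not all of these settings could move a list. A phr2 library left out, the WT libraries alone, no intensity trend or the replicate block leave every WT log2 change as it was. Leaving out a WT and a phr2 library together gives the same changes as leaving out that WT library alone. Among lists with at least 15 genes kept, the 5 lowest medians were those of the NDH complex, the light harvesting antenna, photosystem II and both kinds of ribosome, followed by homeodomain factors and chlorophyll synthesis, and those at the high end were autophagy, peroxisomal fatty acid breakdown, diterpenoid phytoalexin synthesis, amino acid breakdown, vacuolar proton pumps and vesicle transport.

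**Figure D1:**
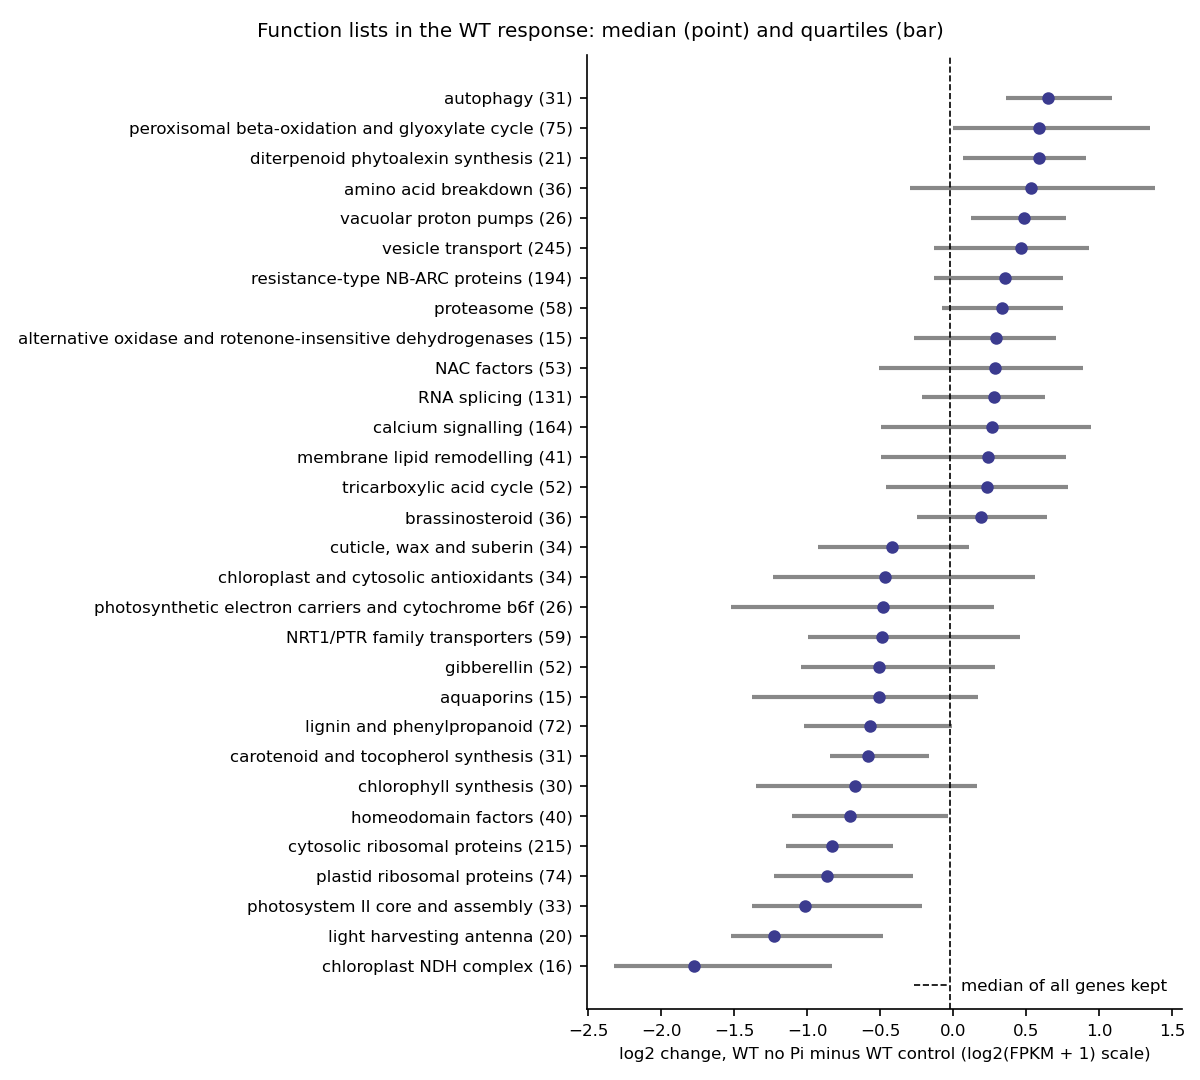
Median log2 change (points) with the lower and upper quartile (bars) of the genes kept in each function list, for the 15 lists with the highest and the 15 with the lowest medians among those with at least 15 genes kept. The horizontal axis is WT no Pi minus WT control on the log2(FPKM + 1) scale, the number in brackets is the genes kept, and the dashed line is the median of all genes (−0.02); autophagy stands highest at 0.65 and the chloroplast NDH complex lowest at −1.78. On the scale of equal FPKM sums the median of all genes lies at 0.42 and the medians of the lists move up with it.

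Genes whose protein is labelled as chloroplast-located made up the broadest change. Of 1749 such genes 1235 were kept, and 86 of them fell (1.81% of all genes fell) while 10 rose. Without overlap of the groups, 350 (28.3%) were lower in WT no Pi, beside 13.4% of all genes, and 74 were higher. Of the FPKM sum, these genes together took 19.7, 21.7 and 20.4% in WT no Pi, against 30.1, 32.3 and 28.3% in WT control. Every WT no Pi library lay below every WT control library. Their median log2 change was −0.43, below that of all genes by 0.41. On the scale of equal FPKM sums it was 0.03, against 0.42 for all genes, so the sign turned there while the distance stayed. On that scale 41 of these genes fell and 31 rose, with limma-voom 43 fell and 33 rose, and with the replicate number as a block 32 fell and 4 rose. With both WT control replicate 1 and the third phr2 no Pi library left out, 12 of these genes fell and 2 rose, and with WT no Pi replicate 2 and that phr2 library left out 116 fell and 12 rose. Genes labelled as mitochondrial, 559 in number, had 9 rises and 7 falls with a median of 0.00, and 28 rises and 2 falls with equal FPKM sums. Of all 20833 genes 1112 rose and 188 fell on that scale. In these bulk samples, fewer cells of a type and less RNA per cell cannot be told apart.

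**Figure D2:**
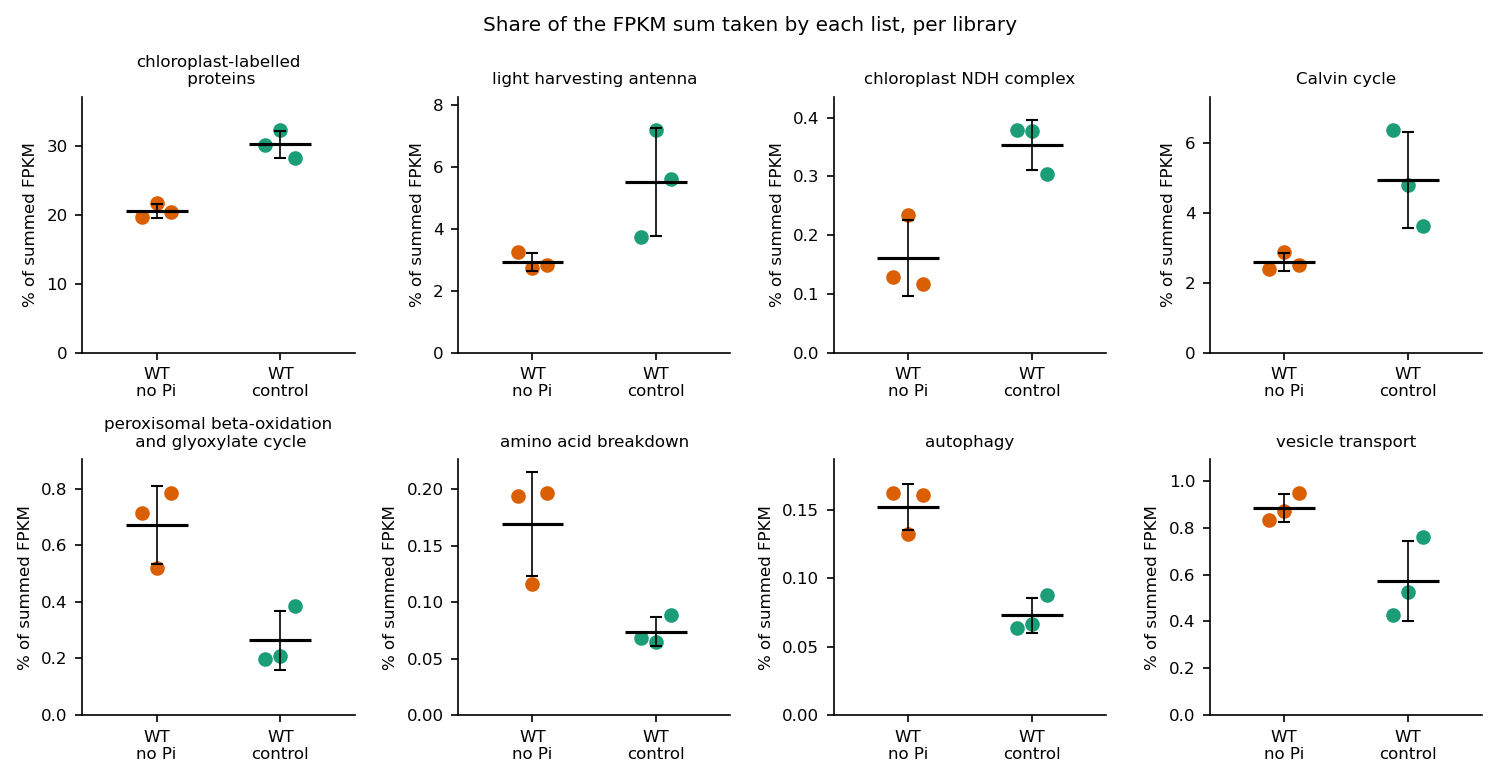
Share of each library's FPKM sum, in percent, taken by 8 lists, with WT no Pi left (orange) and WT control right (green). Points are libraries, the long bar is the mean and the error bar 1 SD (n = 3); in all 8 panels the groups do not overlap, the upper row being lower and the lower row higher in WT no Pi.

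The chloroplast NDH complex, which passes electrons from ferredoxin back to plastoquinone in cyclic electron flow around photosystem I, had the lowest median of any function list with at least 15 genes kept. Of its 16 genes kept, 8 fell, 0 rose and 11 were lower without overlap. The median log2 change was −1.78, and −1.24 with equal FPKM sums, where 5 fell. The subunit of subcomplex B 1 (Os08g0276100, chromosome 8, 10630309 to 10633641 in the deposited coordinates, whose rice assembly is not given in the sources used here) had 33.7, 37.1 and 22.1 FPKM in WT no Pi, against 229, 222 and 128 FPKM in WT control (log2 change −2.59, SE 0.36, adjusted p = 0.0198). The groups were far apart, the highest WT no Pi library lying well under the lowest WT control library. Subunit B 2 (Os03g0158300) had 51.5, 151 and 36.9 FPKM in WT no Pi, against 646, 491 and 251 FPKM in WT control (log2 change −2.68, SE 0.49, adjusted p = 0.0312). Here WT no Pi replicate 2 was the highest of its group. The lumenal subunit 3 (Os07g0105600) had 148, 201 and 64 FPKM in WT no Pi, against 1672, 923 and 421 FPKM in WT control (log2 change −2.79, SE 0.54, adjusted p = 0.0336). Its WT control libraries spread over a wide range, none reaching down to the no Pi libraries. The 2 most abundant subunits of this list, N (Os01g0882500) and B 4 (Os02g0744000), fell by 1.87 and 1.79 on the log2 scale. Subunits M, S and B 3 (Os04g0539000, Os07g0196200, Os07g0489800) also fell, M and S being named after their values were seen, with log2 changes of −1.52, −2.23 and −2.91. With both WT control replicate 1 and the third phr2 no Pi library left out, 1 of the 16 fell, and with WT no Pi replicate 2 and that library left out 10 fell.

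**Figure D3:**
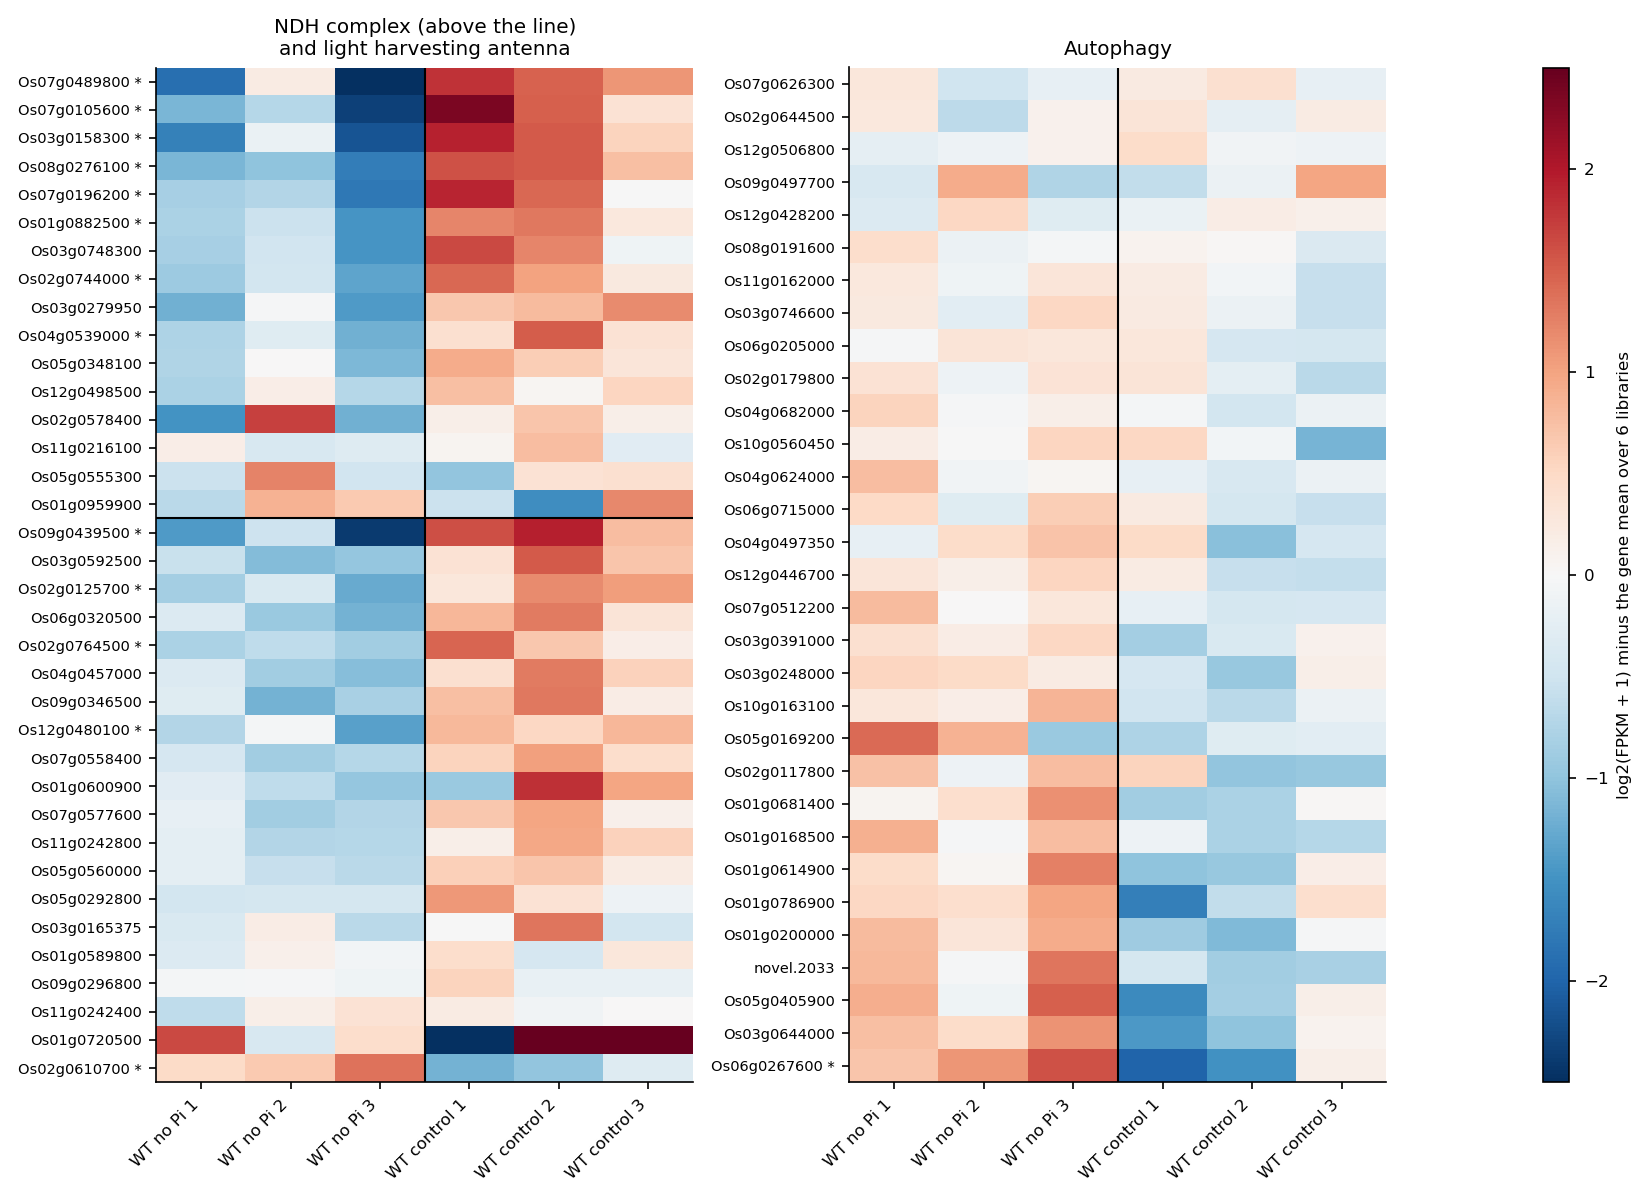
Each row is a gene and each column a library, WT no Pi left of the black line and WT control right of it; colour gives log2(FPKM + 1) minus the gene's mean over the 6 libraries, red above and blue below it, and an asterisk marks genes that passed. The left panel holds the NDH complex above the horizontal line and the light harvesting antenna beneath it, mostly blue in WT no Pi; the right panel holds the autophagy genes, mostly red there, with 1 that passed.

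The light harvesting antenna and the photosystems lay on the same side. Of 20 antenna genes 4 fell, 1 rose and 13 were lower without overlap. With equal FPKM sums and with limma-voom 1 fell and 1 rose, and 1 fell and 0 rose both with the replicate number as a block and with WT control replicate 1 and the third phr2 no Pi library left out. Their median was −1.23 and their share of the FPKM sum was 3.25, 2.72 and 2.81% in WT no Pi, against 3.71, 7.17 and 5.61% in WT control. Under quantile normalization the antenna median was −0.38, against −0.01 for all genes. The antenna protein of photosystem I described as chlorophyll a/b-binding protein 6 (Os09g0439500) had 69, 130.5 and 34.7 FPKM in WT no Pi, against 572, 718 and 319.7 FPKM in WT control (log2 change −2.88, SE 0.46, adjusted p = 0.0276). A light-harvesting-like protein (Os02g0125700), of the family that holds chlorophyll during assembly and repair, had 137, 191 and 104 FPKM in WT no Pi, against 301, 562 and 511 FPKM in WT control (log2 change −1.66, SE 0.36, adjusted p = 0.0405). LIGHT-HARVESTING COMPLEX SUBUNIT A1 (Os06g0320500), one of the most abundant genes of the leaf, had 7722, 5119 and 4282 FPKM in WT no Pi, against 17260.0, 24117 and 12276 FPKM in WT control, with no overlap and without passing (adjusted p = 0.0607). One gene with a chlorophyll-binding domain (Os02g0610700) went the other way, at 142, 162 and 261 FPKM in WT no Pi, against 44.5, 50.9 and 81.8 FPKM in WT control (log2 change 1.66, SE 0.34, adjusted p = 0.0400). The antenna genes are close copies of each other, so reads may be split among them.

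In photosystem II 4 of 33 genes fell and 1 rose, with a median of −1.02, or −0.50 under quantile normalization. With WT control replicate 1 and the third phr2 no Pi library left out 0 fell. PsbS (Os01g0869800), which turns excess light energy into heat, had 1508, 1259.9 and 1058 FPKM in WT no Pi, against 11763, 7715 and 3558 FPKM in WT control, the no Pi libraries lying close together. The assembly factor Psb28 (Os01g0938100) fell by 2.13 on the log2 scale, and the PsbP-domain protein 2 (Os04g0434900) by 1.65. The 1 that rose, a low copy of the 10 kDa polypeptide (Os07g0147550), was at 82, 44.9 and 16.4 FPKM in WT no Pi, against 0.303, 0.771 and 0.873 FPKM in WT control, whereas the abundant copy (Os08g0200300) was at 18197, 12618 and 18196 FPKM in WT no Pi, against 39140.0, 30977 and 20392 FPKM in WT control. In photosystem I 0 of 9 genes passed, 6 were lower without overlap, and the median was −0.90, or 0.02 under quantile normalization. PROTON GRADIENT REGULATION 5 (Os08g0566600), of the second route of cyclic electron flow, had 318, 195 and 278 FPKM in WT no Pi, against 1149, 656 and 355 FPKM in WT control and did not pass. Of 26 electron carrier genes 4 fell, among them ferredoxin C2 (Os03g0685000) at 164, 209 and 154 FPKM in WT no Pi, against 619, 550.1 and 389 FPKM in WT control and a small cytochrome b6f subunit (Os03g0765900) at 717, 1065 and 423 FPKM in WT no Pi, against 2149, 3606 and 1779 FPKM in WT control. Another of the 4 was NDH subunit B 3 (Os07g0489800), already counted among the falls of the NDH complex. The median of the 26 carrier genes was −0.48, and 0.06 with equal FPKM sums, below all genes on both scales. Under quantile normalization it was −0.09, against −0.01 for all genes. With equal FPKM sums 0 of the 26 carrier genes fell and 1 rose, with limma-voom 0 fell and 2 rose, and with WT control replicate 1 and the third phr2 no Pi library left out 0 passed.

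Pigment synthesis lay lower as well. Of 30 chlorophyll synthesis genes 4 fell, 0 rose, and the median was −0.67; with equal FPKM sums 2 fell and 1 rose. These were porphobilinogen deaminase (Os02g0168800), an early step, at 23.4, 16.3 and 11.9 FPKM in WT no Pi, against 40.6, 77.9 and 60.3 FPKM in WT control, and 3 late steps. YELLOW-GREEN LEAF 18 (Os06g0132400), the magnesium-protoporphyrin methyltransferase, had 162, 356 and 82.7 FPKM in WT no Pi, against 1865, 2199.5 and 946 FPKM in WT control, the largest of the 4 differences (log2 change −3.21, SE 0.49, adjusted p = 0.0269). DIVINYL REDUCTASE (Os03g0351200) and the protochlorophyllide reductase FADED GREEN LEAF (Os10g0496900) fell by 1.91 and 2.18 on the log2 scale. Among 31 carotenoid and tocopherol genes 1 fell: LYCOPENE BETA-CYCLASE (Os02g0190600), at the branch to beta-carotene, had 36.6, 33.7 and 22.6 FPKM in WT no Pi, against 296, 166 and 66.2 FPKM in WT control (log2 change −2.25, SE 0.46, adjusted p = 0.0397). ZETA-CAROTENE DESATURASE (Os07g0204900) and a phytoene synthase (Os09g0555500) were lower without overlap and did not pass.

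Carbon fixation genes fell at several steps. Of 55 genes on the list 8 fell, 0 rose, and of the FPKM sum the list took 2.39, 2.88 and 2.5% in WT no Pi, against 6.38, 4.82 and 3.62% in WT control. GAPDH A (Os04g0459500), the reducing step, had 772, 652 and 563 FPKM in WT no Pi, against 5219, 6011 and 2828 FPKM in WT control (log2 change −2.76, SE 0.37, adjusted p = 0.0198), and its partner GAPDH B (Os03g0129300) had 866, 450.0 and 784 FPKM in WT no Pi, against 2739, 3073 and 1494 FPKM in WT control. PHOSPHOGLYCERATE KINASE 3 (Os05g0496200) had 116, 69.6 and 72.2 FPKM in WT no Pi, against 326, 389 and 324 FPKM in WT control. In these 3 genes no WT no Pi library reached the lowest WT control library. The chloroplast fructose-1,6-bisphosphatase (Os03g0267300) fell by 2.36 on the log2 scale, transketolase (Os06g0133800) by 1.45 and Rubisco accumulation factor 1 (Os10g0445600) by 2.23. RUBISCO SMALL SUBUNIT 3 (Os12g0291100), 1 of several near-identical genes, had 5929, 6211 and 4424 FPKM in WT no Pi, against 24362, 20212 and 12383 FPKM in WT control (log2 change −1.74, SE 0.40, adjusted p = 0.0429). The list's median was −0.34, and 0.18 with equal FPKM sums and 0.14 with limma-voom, where all genes stood at 0.42 and 0.47. With equal FPKM sums 5 fell and 1 rose, and 4 fell both with the replicate number as a block and with WT control replicate 1 and the third phr2 no Pi library left out. The eighth gene that fell, the cytosolic fructose-1,6-bisphosphatase MONOCULM 2 (Os01g0866400), belongs to sucrose synthesis, and had 205, 260.2 and 227 FPKM in WT no Pi, against 696, 882 and 705 FPKM in WT control. In sucrose synthesis a pair of neighbouring sucrose-phosphate synthase genes fell too: SUCROSE PHOSPHATE SYNTHASE 11 (Os11g0236100) had 109, 76.5 and 58.7 FPKM in WT no Pi, against 673, 386 and 177 FPKM in WT control, and Os11g0236200 had 10.8, 21.9 and 16.7 FPKM in WT no Pi, against 49.6, 46.7 and 65.6 FPKM in WT control. The whole list of starch and sucrose synthesis had 3 falls and 1 rise among 30 genes, 12 of them with a log2 change above 0. Its median was −0.19, and its share of the FPKM sum overlapped between the groups. With WT control replicate 1 and the third phr2 no Pi library left out, 0 of the 30 passed. In photorespiration, which recovers carbon from the oxygenation of ribulose bisphosphate, 2 of 23 genes fell. The mitochondrial aminomethyltransferase of glycine cleavage (Os04g0623800) had 136, 108 and 107 FPKM in WT no Pi, against 523, 453 and 384 FPKM in WT control (log2 change −1.95, SE 0.27, adjusted p = 0.0198), and SERINE HYDROXYMETHYLTRANSFERASE 2 (Os11g0455800) had 22.2, 12.5 and 11.6 FPKM in WT no Pi, against 65.5, 95.5 and 50.1 FPKM in WT control.

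Chloroplast redox enzymes included 2 peroxiredoxins, which remove peroxides with electrons from thioredoxins. PEROXIREDOXIN IIE2 (Os02g0192700) had 72.1, 96.4 and 39.4 FPKM in WT no Pi, against 1024, 665 and 322 FPKM in WT control (log2 change −3.19, SE 0.44, adjusted p = 0.0198). The 2-Cys peroxiredoxin (Os02g0537700) had 764, 1271 and 437 FPKM in WT no Pi, against 3163, 4028 and 2605 FPKM in WT control (log2 change −2.09, SE 0.43, adjusted p = 0.0397). In contrast, the glutathione peroxidase for lipid peroxides (Os03g0358100) rose, at 158, 135 and 207 FPKM in WT no Pi, against 68.8, 61.6 and 84.6 FPKM in WT control (log2 change 1.20, SE 0.27, adjusted p = 0.0420). Over 34 antioxidant genes 2 fell and 1 rose, with a median of −0.46, or 0.06 with equal FPKM sums, where 1 fell and 2 rose.

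Ribosomal protein genes of both compartments lay below the median of all genes. Of 74 plastid genes 7 fell, 0 rose and 32 were lower without overlap. With equal FPKM sums 3 fell and 1 rose, with the replicate number as a block 1 fell, and with the third phr2 no Pi library left out 1 fell where WT control replicate 1 was also left out and 16 where WT no Pi replicate 2 was. The median was −0.87, and −0.34 with equal FPKM sums. Plastid L10 (Os03g0284400) had 371, 386 and 187 FPKM in WT no Pi, against 2246, 1638 and 811 FPKM in WT control (log2 change −2.26, SE 0.44, adjusted p = 0.0355), and plastid L12 (Os05g0568300) had 42.3, 77.5 and 23.3 FPKM in WT no Pi, against 407, 269 and 212 FPKM in WT control. Of 215 cytosolic genes only 3 fell, yet 79 (36.7%) were lower without overlap, and 179 had a log2 change below 0. The median was −0.83, or −0.33 under quantile normalization, and −0.29 with equal FPKM sums, where 3 fell and 2 rose. Their share of the FPKM sum, at 3.83, 4.15 and 3.004% in WT no Pi, against 5.41, 5.33 and 3.91% in WT control, did overlap, WT control replicate 3 lying among the no Pi libraries. The 40S proteins S5 (Os01g0100700) and S20 (Os03g0249400) fell, at 150.3, 143 and 81.1 FPKM in WT no Pi, against 698, 576 and 239 FPKM in WT control for S5 and 53, 74.3 and 24.9 FPKM in WT no Pi, against 244, 255 and 145 FPKM in WT control for S20. Translation initiation and elongation factors had 0 that passed among 73.

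Pentatricopeptide repeat proteins, which bind and process the RNAs of plastids and mitochondria, had 8 falls and 0 rises among 373 genes, a share near the 1.81% of all genes that fell. Without overlap 79 (21.2%) were lower, beside 13.4% of all genes. Os03g0856100 had 27.5, 48.5 and 14.7 FPKM in WT no Pi, against 435, 242 and 81.3 FPKM in WT control (log2 change −2.87, SE 0.62, adjusted p = 0.0405). Where Swiss-Prot gives a compartment, 5 of 77 chloroplast members fell with a median of −0.45. Of 82 mitochondrial members 0 fell, with a median of −0.22, or 0.14 with equal FPKM sums. The difference between these 2 sets was not tested.

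Fatty acid breakdown in the peroxisome lay at the high end of the response. Of 75 genes of beta-oxidation, peroxisome formation and the glyoxylate cycle 9 rose (1.27% of all genes rose) and 1 fell. Without overlap 22 (29.3%) were higher, beside 12% of all genes. Their share of the FPKM sum was 0.714, 0.519 and 0.786% in WT no Pi, against 0.198, 0.21 and 0.385% in WT control. The median log2 change was 0.59, and it stood above that of all genes under each of the 28 alternatives, several of which could not move it. On the scale of equal FPKM sums 17 rose and 0 fell. With both WT control replicate 1 and the third phr2 no Pi library left out, 4 genes rose, and with WT no Pi replicate 2 and that library left out 11 rose and 3 fell.

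In the order of the route, the genes that rose begin with the activation of the fatty acid. The acyl-activating enzyme 17 (Os09g0380050), of a family that attaches CoA to acids, had 1146, 839.7 and 1441 FPKM in WT no Pi, against 173, 192 and 335 FPKM in WT control (log2 change 2.31, SE 0.37, adjusted p = 0.0276), and a long-chain acyl-CoA synthetase (Os11g0147000) had 70.3, 81.7 and 75.2 FPKM in WT no Pi, against 10.7, 17 and 36.8 FPKM in WT control. Acyl-CoA oxidases carry out the first oxidation of beta-oxidation, and 4 of them rose, all named here after their values were seen. Acyl-CoA oxidase 2 (Os11g0605500) had 59.3, 21.4 and 49.5 FPKM in WT no Pi, against 2.18, 4.83 and 9.9 FPKM in WT control (log2 change 2.80, SE 0.50, adjusted p = 0.0304). ACYL-COA OXIDASE 4 (Os05g0163700) had 212, 86.5 and 236 FPKM in WT no Pi, against 48.2, 19.6 and 23.5 FPKM in WT control (log2 change 2.49, SE 0.43, adjusted p = 0.0304), and the other gene of that name (Os01g0159400) had 149, 99.7 and 178 FPKM in WT no Pi, against 29.98, 33.5 and 68.3 FPKM in WT control. Acyl-CoA oxidase 3 (Os06g0354500) had 88.1, 47.9 and 93.4 FPKM in WT no Pi, against 16.7, 16.8 and 25.5 FPKM in WT control (log2 change 1.87, SE 0.36, adjusted p = 0.0355). In all 4 the lowest WT no Pi library stood above the highest WT control library. Enoyl-CoA hydratase 2 (Os09g0544900) rose by 1.48 on the log2 scale, and a thiolase (Os02g0817700), the last step, had 1342, 395 and 874 FPKM in WT no Pi, against 624, 338 and 313 FPKM in WT control, where the groups overlapped. ISOCITRATE LYASE (Os07g0529000, chromosome 7, 20691213 to 20693521) and MALATE SYNTHASE (Os04g0486950, chromosome 4, 24325769 to 24328250) turn acetyl-CoA into 4-carbon acids. Isocitrate lyase had 1122, 52 and 98 FPKM in WT no Pi, against 0.074, 1.95 and 0.107 FPKM in WT control (log2 change 6.89, SE 1.11, adjusted p = 0.0276), its WT no Pi replicate 1 being far above the other libraries of the group. Malate synthase had 1153, 125 and 439 FPKM in WT no Pi, against 1.94, 12 and 3.66 FPKM in WT control (log2 change 6.15, SE 0.78, adjusted p = 0.0171), again highest in WT no Pi replicate 1. The 1 gene that fell encodes an Mpv17/PMP22-type membrane protein (Os01g0730800), at 27, 36.6 and 21.9 FPKM in WT no Pi, against 80.2, 65.5 and 68.1 FPKM in WT control.

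**Figure D4:**
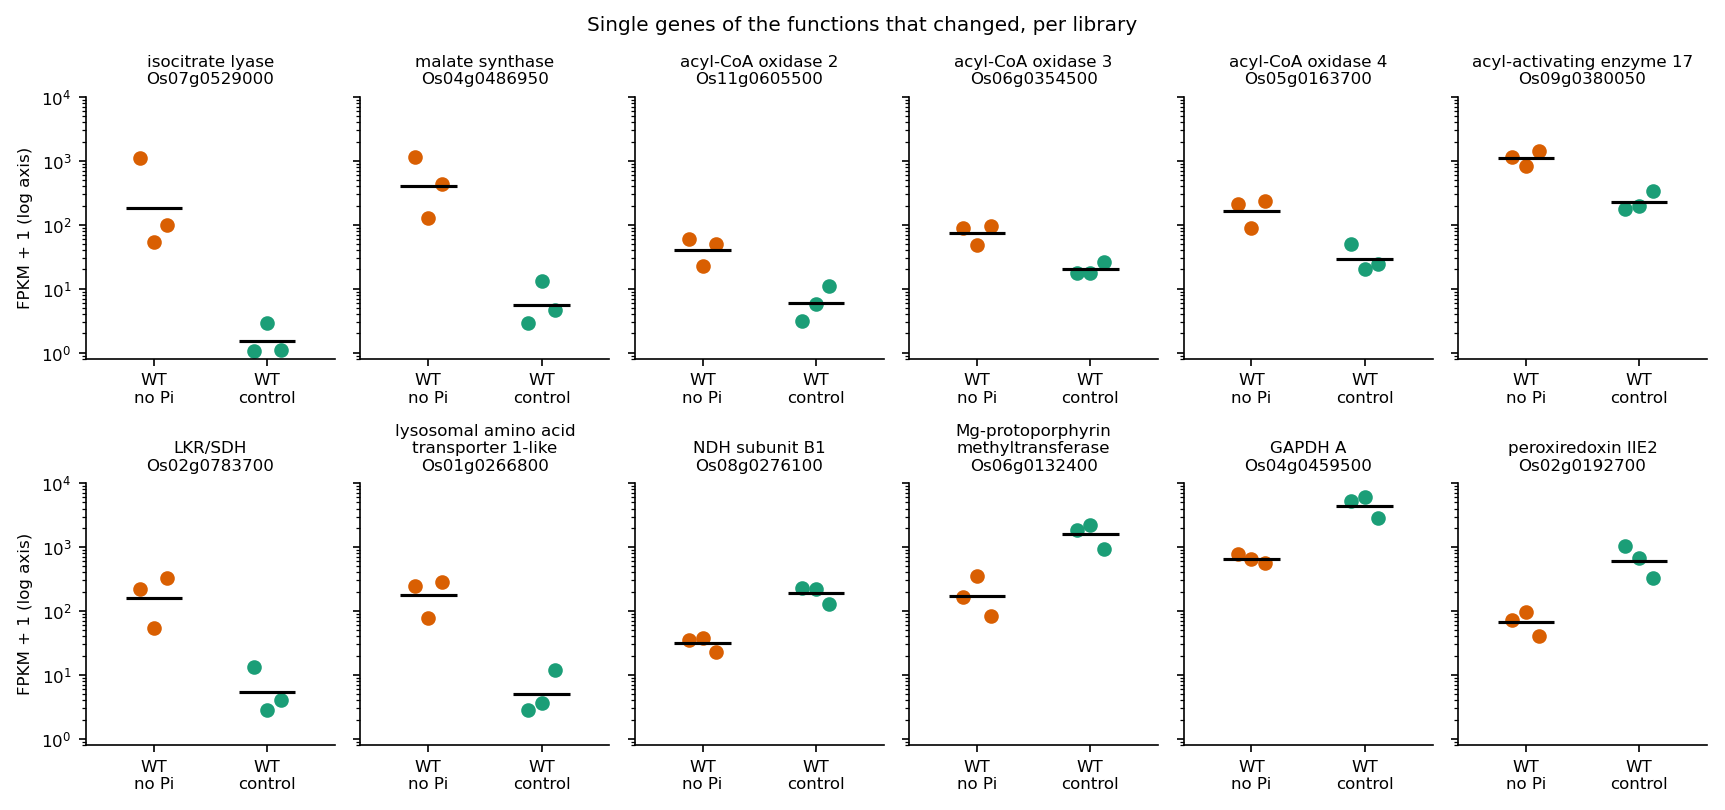
FPKM + 1 on a common log axis for 12 genes, WT no Pi left (orange) and WT control right (green); points are libraries and bars are means on the log scale (n = 3). The 6 genes of the upper row and the first 2 of the lower row are higher in every WT no Pi library, and the last 4 genes are lower in every WT no Pi library; the acyl-CoA oxidases and acyl-activating enzyme 17 spread less between replicates than isocitrate lyase does.

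Amino acid breakdown lay high beside it. Of 36 genes 4 rose and 13 were higher without overlap, with a share of 0.194, 0.116 and 0.197% in WT no Pi, against 0.0687, 0.0648 and 0.0886% in WT control and a median of 0.54. The count that rose was 10 with equal FPKM sums, 8 with limma-voom and 1 with WT control replicate 1 and the third phr2 no Pi library left out. Lysine ketoglutarate reductase/saccharopine dehydrogenase (Os02g0783700), which starts lysine breakdown, had 219, 52.8 and 326 FPKM in WT no Pi, against 12.5, 1.8 and 2.99 FPKM in WT control (log2 change 4.88, SE 0.93, adjusted p = 0.0336). The other 3 rises belong to the mitochondrial branch that passes electrons from amino acid breakdown to ubiquinone. ETF-ubiquinone oxidoreductase (Os10g0516300) had 19.1, 16.2 and 63.3 FPKM in WT no Pi, against 2.23, 1.68 and 6.43 FPKM in WT control (log2 change 2.81, SE 0.52, adjusted p = 0.0313), the alpha subunit of the electron transfer flavoprotein (Os03g0835400) had 80.2, 27.8 and 44.3 FPKM in WT no Pi, against 7.08, 10.2 and 13.4 FPKM in WT control, and D-2-hydroxyglutarate dehydrogenase (Os07g0187200) had 47.3, 31.4 and 40.9 FPKM in WT no Pi, against 11.3, 7.71 and 12.8 FPKM in WT control. The groups of all 3 genes were apart. A gene described as cystathionine gamma-lyase (Os10g0517500) stood at 353, 35.2 and 191 FPKM in WT no Pi, against 458, 140.2 and 99.97 FPKM in WT control, with overlapping groups. The 1 fall was in an unannotated locus matched to an asparaginase. Among 73 amino acid and peptide transporter genes 2 rose and 2 fell, or 4 rose and 1 fell with equal FPKM sums. Their median was −0.42, below that of all genes. Without overlap 6 (8.22%) were higher and 14 (19.2%) lower, beside 12% and 13.4% of all genes. Of the 2 that rose, a vacuolar-type amino acid transporter (Os01g0266800), described as a lysosomal transporter, had 243, 76.6 and 285 FPKM in WT no Pi, against 1.81, 2.65 and 10.9 FPKM in WT control (log2 change 5.15, SE 0.64, adjusted p = 0.0170). AVT6A (Os02g0191300), which exports amino acids from the vacuole in Arabidopsis, had 409.8, 38.5 and 349 FPKM in WT no Pi, against 13.7, 17.8 and 14.5 FPKM in WT control (log2 change 3.46, SE 0.72, adjusted p = 0.0405). Amino acid permease 3 (Os09g0427300) and NRT1/PTR FAMILY 3.1 (Os05g0410900) fell by 2.21 and 1.89 on the log2 scale.

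Autophagy had the highest median of any function list with at least 15 genes kept, 0.65, while only 1 of its 31 genes passed. Of these 13 were higher without overlap and 0 lower, and their share was 0.162, 0.132 and 0.161% in WT no Pi, against 0.0639, 0.0665 and 0.0878% in WT control. ATG2 (Os06g0267600), which passes lipids to the growing autophagosome, had 27.5, 36.8 and 52.3 FPKM in WT no Pi, against 3.42, 5.15 and 18.5 FPKM in WT control (log2 change 2.25, SE 0.53, adjusted p = 0.0461). ATG6B (Os03g0644000), a Beclin-type subunit, had 20.5, 16.5 and 26.7 FPKM in WT no Pi, against 3.71, 5.3 and 12.5 FPKM in WT control, and ATG3A (Os01g0200000), which couples ATG8 to lipid, had 36.3, 25.5 and 39.8 FPKM in WT no Pi, against 10.7, 9.08 and 20.04 FPKM in WT control; neither passed (adjusted p = 0.0573 and 0.0578). WT control replicate 3 was the highest of its group in all 3. ATG8A (Os07g0512200), the abundant membrane tag, had 931, 540.2 and 654 FPKM in WT no Pi, against 466, 399 and 403 FPKM in WT control and did not pass. Limma called 0 autophagy genes with the replicate number as a block and 8 with equal FPKM sums.

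Membrane traffic made up a larger set. Of 245 vesicle transport genes 6 rose, 1 fell, and 62 (25.3%) were higher without overlap. Their share was 0.832, 0.872 and 0.95% in WT no Pi, against 0.427, 0.527 and 0.761% in WT control, with a median of 0.47. Rab-21 (Os05g0341600), a small GTPase, had 27.2, 28.2 and 49.7 FPKM in WT no Pi, against 8.95, 7.26 and 10.2 FPKM in WT control (log2 change 1.84, SE 0.35, adjusted p = 0.0330). Syntaxin-52 (Os08g0277900), a SNARE of vacuolar traffic, had 78.5, 79.2 and 97.8 FPKM in WT no Pi, against 22.7, 24.1 and 45.2 FPKM in WT control (log2 change 1.51, SE 0.32, adjusted p = 0.0405), and syntaxin-81 (Os04g0530400), of traffic to the endoplasmic reticulum, had 28, 21 and 28.9 FPKM in WT no Pi, against 8.29, 6.47 and 10.4 FPKM in WT control. In these 3 genes the groups were apart, and WT control replicate 3 was the highest of its group. VPS9A (Os03g0842700), which activates Rab5, had 74, 100.4 and 167 FPKM in WT no Pi, against 27.7, 15.4 and 39.6 FPKM in WT control, and the ESCRT subunit VPS25 (Os01g0658500), which sorts proteins for the vacuole, had 32.9, 50.6 and 36.7 FPKM in WT no Pi, against 13.4, 14.4 and 22.1 FPKM in WT control. SPOTTED LEAF 28 (Os01g0703600), an adaptor subunit for clathrin coats, had 15.2, 31.4 and 33.3 FPKM in WT no Pi, against 3.75, 2.93 and 10.9 FPKM in WT control. Rabankyrin-5 (Os07g0532500) fell, at 5.19, 21.6 and 4.59 FPKM in WT no Pi, against 84.9, 72.6 and 33.3 FPKM in WT control. With equal FPKM sums 26 rose and 0 fell, with limma-voom 29 and 0, and with the replicate number as a block 1 and 0. With both WT control replicate 1 and the third phr2 no Pi library left out, 0 of the 245 rose and 2 fell, and with WT no Pi replicate 2 and that library left out 3 rose and 2 fell. The subunits of the V-type proton ATPase, which acidifies the vacuole, had 0 of 20 that passed, 6 that were higher without overlap, and a share of 0.161, 0.196 and 0.17% in WT no Pi, against 0.0854, 0.0921 and 0.113% in WT control. Its groups did not overlap. Among 58 proteasome genes 0 passed (5 rose with equal FPKM sums), with a median of 0.34 and a share of 0.264, 0.224 and 0.28% in WT no Pi, against 0.138, 0.153 and 0.171% in WT control.

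Leaf senescence genes were split. Of 28 genes 3 rose and 0 fell, with a median of 0.10; 5 rose with equal FPKM sums and 0 with WT control replicate 1 and the third phr2 no Pi library left out. NON-YELLOW COLORING 3 (Os06g0354700), the pheophytinase that removes the phytol chain in chlorophyll breakdown, had 10.6, 10.7 and 16.8 FPKM in WT no Pi, against 2.13, 0.454 and 2.28 FPKM in WT control (log2 change 2.45, SE 0.58, adjusted p = 0.0461). A sulfurtransferase related to a dark-inducible gene of Arabidopsis (Os06g0725000) had 281, 30.9 and 143 FPKM in WT no Pi, against 4.97, 5.95 and 6.74 FPKM in WT control. CHLOROPLAST VESICULATION (Os05g0575000), which carries chloroplast proteins to the vacuole, had 687, 59.8 and 27.5 FPKM in WT no Pi, against 1.18, 1.998 and 2.12 FPKM in WT control (log2 change 5.28, SE 1.16, adjusted p = 0.0405), most of it in WT no Pi replicate 1. The narrower set of 11 senescent leaf markers, 1 of which passed, took a share of 0.133, 0.0872 and 0.114% in WT no Pi, against 0.079, 0.0635 and 0.0844% in WT control. THYLAKOID FORMATION1 (Os07g0558500) had 324, 338 and 509 FPKM in WT no Pi, against 122, 118 and 399.7 FPKM in WT control, with overlap.

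Lipid genes changed in both directions. The phosphatidate phosphatase PAH1 (Os05g0462301), which feeds galactolipid synthesis by releasing diacylglycerol, had 499, 245 and 919.5 FPKM in WT no Pi, against 76.3, 47.7 and 113 FPKM in WT control (log2 change 2.68, SE 0.49, adjusted p = 0.0304), and its neighbour Os05g0462400 had 76.9, 26.7 and 150.3 FPKM in WT no Pi, against 11.8, 10.3 and 29.5 FPKM in WT control, with overlap (adjusted p = 0.065). A phospholipase A1 (Os09g0513100), described as LCAT3, had 163, 61.7 and 174 FPKM in WT no Pi, against 9.89, 19.7 and 20.4 FPKM in WT control (log2 change 2.85, SE 0.50, adjusted p = 0.0304), and a class 3 lipase (Os02g0481700) had 27.8, 16.5 and 20.2 FPKM in WT no Pi, against 2.93, 4.12 and 5.78 FPKM in WT control. For PAH1 at Os05g0462301, LCAT3 and the class 3 lipase, no library of one group reached into the range of the other. PHOSPHOLIPASE D ALPHA 5 (Os06g0604300) fell, at 1.36, 1.58 and 0.954 FPKM in WT no Pi, against 5.58, 12.2 and 6.81 FPKM in WT control. The list of membrane lipid remodelling had 1 rise and 1 fall among 41 genes, with a median of 0.24. Its share of the FPKM sum was 0.127, 0.144 and 0.204% in WT no Pi, against 0.053, 0.0558 and 0.115% in WT control, higher without overlap. The broad list of lipases and phospholipases had 5 rises and 6 falls among 155, or 9 rises and 4 falls with equal FPKM sums. In the citric acid cycle 1 of 52 genes rose and 2 fell, or 3 rose and 1 fell with equal FPKM sums. The alpha subunits of pyruvate dehydrogenase went opposite ways: FLOURY ENDOSPERM 19 (Os04g0119400) had 542, 121 and 448 FPKM in WT no Pi, against 74.4, 58 and 53.3 FPKM in WT control, and Os02g0739600 had 185, 166 and 161 FPKM in WT no Pi, against 307, 388 and 325 FPKM in WT control. Mitochondrial malate dehydrogenase (Os05g0574400) had 312, 306 and 313 FPKM in WT no Pi, against 1273, 966 and 823 FPKM in WT control (log2 change −1.69, SE 0.35, adjusted p = 0.0397). The respiratory chain had 0 that passed among 78 genes.

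Few genes known for Pi starvation itself passed. Of the 54 Pi transporters, acid phosphatases, SPX proteins and regulators kept on this list, 0 rose and 2 fell. Without overlap 8 (14.8%) were higher and 11 (20.4%) lower, beside 12% and 13.4% of all genes. The share of the FPKM sum taken by the list was higher in every WT no Pi library, at 0.142, 0.158 and 0.153% in WT no Pi, against 0.104, 0.0955 and 0.138% in WT control. The median was −0.10, or 0.29 with equal FPKM sums. The calls depended on the scale too: 5 rose and 1 fell with equal FPKM sums and again with limma-voom, while 0 rose and 1 fell with the replicate number as a block. A further 38 of the 117 on the list are listed at 0 in all libraries, from which no absence is read, and the others were under the filter. The genes that fell were a mitochondrial phosphate carrier (Os03g0263400), at 12.8, 10.4 and 9.98 FPKM in WT no Pi, against 36.3, 57.3 and 29.5 FPKM in WT control, and an acid phosphatase. PURPLE ACID PHOSPHATASE 10D (Os12g0637200) was at 3.15, 5.55 and 2.6 FPKM in WT no Pi, against 48.4, 35 and 9.87 FPKM in WT control (log2 change −2.54, SE 0.56, adjusted p = 0.0405), and PURPLE ACID PHOSPHATASE 10C (Os12g0637100), its neighbour, had 20.6, 23.9 and 13.1 FPKM in WT no Pi, against 88.8, 134 and 32.9 FPKM in WT control (adjusted p = 0.0519). PURPLE ACID PHOSPHATASE 26 (Os06g0643900), a vacuolar enzyme of Pi remobilization in leaves, had 164, 96.5 and 95.2 FPKM in WT no Pi, against 33.9, 41.4 and 49.9 FPKM in WT control, higher without overlap and not passing (adjusted p = 0.063). The regulator PHOSPHATE STARVATION RESPONSE 1 (Os03g0329900) had 37, 50.2 and 63 FPKM in WT no Pi, against 16.5, 14.3 and 35 FPKM in WT control, also without passing. PHOSPHATE STARVATION RESPONSE 2 (Os07g0438800) had 24.8, 31.5 and 24.7 FPKM in WT no Pi, against 27.5, 17.9 and 22.1 FPKM in WT control, and these groups overlapped. LOW PHOSPHATE ROOT 2 (Os01g0126200), a multicopper oxidase of a family that acts in the low-Pi response of Arabidopsis roots, had 11, 17.2 and 11.6 FPKM in WT no Pi, against 117, 149.7 and 57.1 FPKM in WT control, among the largest falls of the response (log2 change −2.85, SE 0.45, adjusted p = 0.0276). Outside the Pi starvation list, CYCLIN-U3-1 (Os05g0398000) rose, a cyclin whose description names negative regulation of phosphate starvation. It had 12.2, 16 and 36.3 FPKM in WT no Pi, against 1.43, 1.06 and 2.71 FPKM in WT control (log2 change 2.94, SE 0.60, adjusted p = 0.0397).

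For other nutrients the changes were few. A nitrate reductase (Os01g0693700) had 3.11, 4.49 and 2.05 FPKM in WT no Pi, against 16.6, 16.3 and 7.27 FPKM in WT control and passed as lower (log2 change −1.73, SE 0.41, adjusted p = 0.0478), while the groups of the abundant one (Os02g0770800) overlapped (log2 change −0.58, not passing). The sulfate transporters Os03g0195500 and Os03g0195475, next to each other on chromosome 3, fell by 1.81 and 2.22 on the log2 scale. NATURAL RESISTANCE-ASSOCIATED MACROPHAGE PROTEIN 6 (Os01g0503400), a metal transporter, had 20.7, 25.9 and 77 FPKM in WT no Pi, against 0.769, 1.04 and 6.73 FPKM in WT control (log2 change 3.56, SE 0.67, adjusted p = 0.0330). Of 52 sugar transporters 1 rose, a polyol transporter (Os10g0360100) at 86.8, 14 and 4.53 FPKM in WT no Pi, against 0.167, 1.42 and 0.241 FPKM in WT control, and 0 fell. An inosine monophosphate dehydrogenase-like protein with CBS domains (Os02g0818000) was among the most abundant genes that rose, at 5340.1, 2804 and 6387 FPKM in WT no Pi, against 514, 1929 and 1081 FPKM in WT control (log2 change 2.16, SE 0.49, adjusted p = 0.0442).

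Few genes passed in the lists of regulators and hormones. The NAC factor 103 (Os07g0683200) had 365, 13.6 and 40.5 FPKM in WT no Pi, against 0.511, 7.8 and 1.1 FPKM in WT control (log2 change 4.32, adjusted p = 0.0457). Without overlap 8 of 53 NAC genes (15.1%) were higher and 1 (1.89%) lower, beside 12% and 13.4% of all genes. Among 66 AP2/ERF genes 0 passed. Without overlap 7 of them (10.6%) were lower, a share under the 13.4% of all genes, and 0 higher. Of 40 homeodomain genes 1 fell, ROC6 (Os09g0526300), an epidermal factor, at 26.1, 20.6 and 18 FPKM in WT no Pi, against 53.7, 95.3 and 79 FPKM in WT control, and the median was −0.71, or −0.26 with equal FPKM sums. WRKY68 (Os04g0605100) and WRKY39 (Os02g0265200) fell by 1.80 and 1.58 on the log2 scale. CRYPTOCHROME 2 (Os02g0625000), a blue light receptor, had 55.1, 40.4 and 79.6 FPKM in WT no Pi, against 5.005, 8.88 and 23 FPKM in WT control (log2 change 2.34, SE 0.48, adjusted p = 0.0397). In gibberellin synthesis ent-kaurenoic acid oxidase (Os10g0378100) had 55.7, 45.3 and 28.4 FPKM in WT no Pi, against 108, 169 and 118 FPKM in WT control, and the 52 gibberellin genes had a median of −0.51. The jasmonate, brassinosteroid, cytokinin and strigolactone lists held 0 genes that passed among 47, 36, 38 and 8 kept. The auxin list had 2 rises and 2 falls among 101, or 4 rises and 1 fall with equal FPKM sums. The abscisic acid list had 1 rise and 2 falls among 138, or 5 rises and 0 falls with equal FPKM sums.

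Cell wall and defence genes were mixed. In xylan synthesis a xylan O-acetyltransferase (Os03g0817900) and a glucuronoxylan O-methyltransferase (Os12g0204500) fell, with log2 changes of −2.11 and −2.12. CELLULOSE SYNTHASE LIKE C1 (Os01g0766900), of xyloglucan synthesis, rose, at 18.4, 25.5 and 23.6 FPKM in WT no Pi, against 1.71, 2.7 and 9.53 FPKM in WT control. In the lignin and phenylpropanoid list 5 of 72 fell (3 with equal FPKM sums, where 2 rose), a dirigent protein (Os11g0178800) at 5.45, 3.84 and 4.7 FPKM in WT no Pi, against 27.1, 24.6 and 17.4 FPKM in WT control, and 1 rose. Resistance-type proteins, 194 in number, had 2 rises (1.27% of all genes rose) and 0 falls, with a median of 0.35. Without overlap 33 (17%) were higher, beside 12% of all genes. With equal FPKM sums 6 rose and with limma-voom 12, where 1112 and 1108 of all 20833 genes rose. Among the resistance-type proteins Os08g0539700, described as a homologue of the blast resistance protein Pib, had 20.5, 10.01 and 15.3 FPKM in WT no Pi, against 0.0691, 0.967 and 0.747 FPKM in WT control (log2 change 3.35, SE 0.36, adjusted p = 0.0120). The 21 genes kept of diterpenoid phytoalexin synthesis, which makes antifungal momilactones and phytocassanes, had a median of 0.59 with 1 rise, a momilactone A synthase match (Os07g0664600), at 225, 29.9 and 8.1 FPKM in WT no Pi, against 0, 2.78 and 2.58 FPKM in WT control. Without overlap only 2 of the 21 (9.52%) were higher and 1 (4.76%) lower, beside 12% and 13.4% of all genes. The chymotrypsin inhibitor 2 (Os01g0615100), which blocks proteases, had 3036, 365 and 1664 FPKM in WT no Pi, against 0.581, 35 and 20.1 FPKM in WT control (log2 change 6.85, SE 1.55, adjusted p = 0.0424), with a wide spread in both groups. Near-identical relatives exist in these families, and reads may be split among them.

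Markers of other cell types gave values beside these results. As shares of the FPKM sum, the dividing cell markers took 0.507, 0.1003 and 0.378% in WT no Pi, against 0.418, 0.133 and 0.0778% in WT control, with overlap and 0 of 21 that passed. Guard cell and epidermis markers took 0.00905, 0.0174 and 0.0117% in WT no Pi, against 0.0134, 0.011 and 0.0123% in WT control, phloem and vein markers 0.0154, 0.0129 and 0.0166% in WT no Pi, against 0.0147, 0.0138 and 0.0188% in WT control, and panicle, pollen and seed markers 0.124, 0.119 and 0.158% in WT no Pi, against 0.0841, 0.148 and 0.177% in WT control. None of these 3 lists, of 14, 6 and 37 genes, held a gene that passed. The mesophyll markers overlap in membership with the antenna and Calvin cycle lists, and their part in those results was not tested.

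The last comparison sets the WT response beside that of the phr2 plants. The median of the 264 genes that rose was 2.02 in WT and 0.23 in phr2, and that of the 378 genes that fell was −1.99 in WT and −0.48 in phr2. In phr2 the change was above 0 for 195 of the 264 and below 0 for 327 of the 378, where of all 20833 genes it was above 0 for 10806 and below 0 for 10026. With the third phr2 no Pi library left out these were 189 and 316. The genes were chosen by their WT change, so the WT medians and their distance from the phr2 medians are a description. The difference between the responses was tested for every gene, and limma called 0 genes (1898 had an unadjusted p under 0.05), and again 0 without that library. PHOSPHOGLYCERATE KINASE 3 (Os05g0496200) changed by −2.04 in WT and 0.07 in phr2, and acyl-activating enzyme 17 (Os09g0380050) by 2.31 in WT and 0.23 in phr2. NDH subunit B 1 (Os08g0276100) changed by −2.59 in WT and −0.88 in phr2. None of these differences passed.

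**Figure D5:**
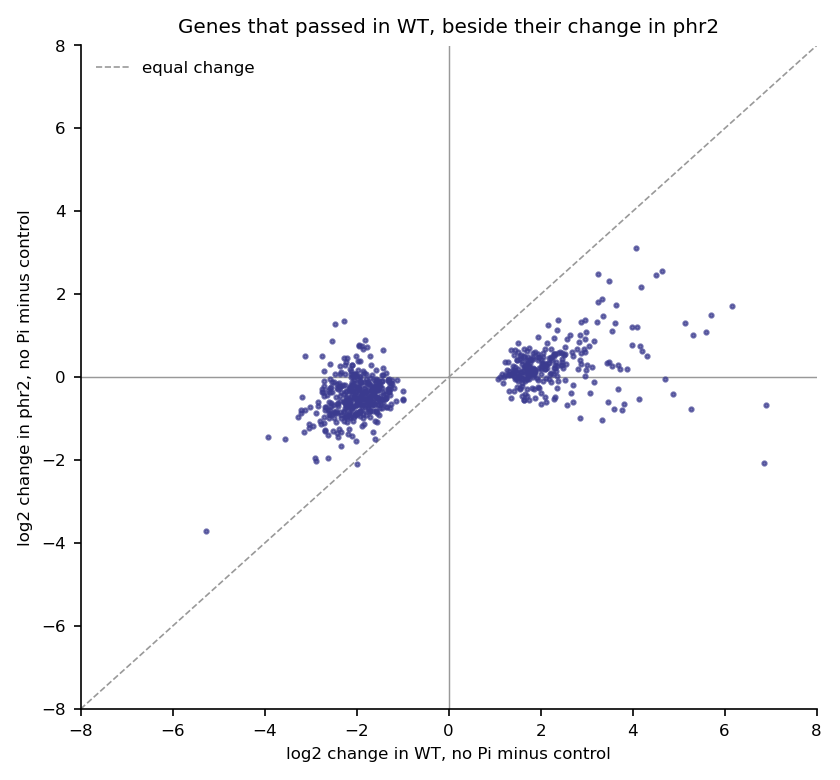
Log2 change, no Pi minus control, in WT (horizontal) and in phr2 (vertical) for the 642 genes that passed in WT; each point is a gene and the dashed line marks equal change. Points lie nearer 0 on the phr2 axis, with medians of 0.23 for the genes higher and −0.48 for those lower in WT, and none passed the test of the difference.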

How the data were processed

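RNA from rice leaves was sequenced in 12 libraries, 3 for each of WT no Pi, WT control, phr2 no Pi and phr2 control. The submitters' processing notes name HISAT2 2.0, StringTie 1.3.0, Bowtie 0.12.2 and the build mm8, a mouse build, although the table holds rice RAP genes; the sources used here give neither the rice assembly nor the strand setting, so antisense or overlapping genes may share reads. The authors deposited 1 FPKM value per transcript and library, with gene coordinates and annotation. Here FPKM was summed over the 46947 transcripts to 39967 genes, and genes that reached an FPKM of 1 in 3 or more of the 6 WT libraries were kept, 20833 in all, 1373 of them unannotated loci. A member that is high in 1 group only can pass this filter through that group.

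The values were taken as log2(FPKM + 1), a scale that understates changes of low genes, and fitted with limma 3.58.1 in R 4.3.3 as 4 group means over all 12 libraries with an intensity trend. The contrast was WT no Pi minus WT control, and p-values were Benjamini-Hochberg adjusted over the 20833 genes, with calls at an adjusted p under 0.05. In every library, FPKM times the annotated length came out as whole reads for 100% of values at a tolerance of 0.01, which gave the depth and the reads for limma-voom. The factor that this needs, 0.674 for WT control replicate 1 to 1.21 for WT no Pi replicate 2, relative to scaling by the reads counted, shows that the deposited FPKM rests on another total in each library. With 3 libraries against 3, an exact permutation test of 1 value cannot go below 0.1, so none was run. Python 3.11.15 with pandas 2.3.3 made the lists and matplotlib 3.10.9 the plots.

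Function lists are word patterns in the annotation, and compartment lists come from Swiss-Prot names in the file; they overlap, and get counts and medians with no test of their own. The members, lists and tests were chosen with earlier results of these data known, and the compartment lists after values were seen. The genes named are drawn from a set made up of, for each list, the 3 with the smallest p and the 2 with the highest mean FPKM, every measured Pi starvation gene, and the 15 largest rises and falls with a name; not all of these are printed, and other genes named passed the test and were chosen after their values were seen. Alternatives changed the filter, pseudocount, scaling, trend, weights, block, transcripts, unannotated loci and libraries. No sequences are shown, since none were used here.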

Additional observations from a re-analysis of the deposited data

How the results depend on the processing

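The count of 642 genes that passed depended on the libraries and the scaling, and the cause was not tested. It was 0 from the 6 WT libraries alone, 156 with no filter, 382 with quantile normalization, 1300 with equal FPKM sums, 1272 with limma-voom on the recovered reads and 6943 with array quality weights. It was 145 without WT control replicate 1 and phr2 no Pi replicate 3, and 0 to 3351 when 1 library was left out at a time, the 0 without WT control replicate 2 (3328 at an unadjusted p under 0.05). In the 8 other settings, leave-one-out aside, it stayed between 460 and 815. Of the 642 genes, 450 also passed with equal FPKM sums, 420 with limma-voom and 69 in the fit that gave 145. Equal FPKM sums and limma-voom moved the share of higher genes among those that passed to 85.5% and 87.1%, against 41.1%. The replicate number as a block gave 239 genes. Same-numbered WT libraries deviated together with correlations of 0.267, 0.0855 and 0.181. For WT no Pi replicates 1 and 3 the same-numbered control library was the best match, while WT no Pi replicate 2 correlated best with WT control replicate 3 (0.293). With 3 libraries in a group, these values cannot settle whether the numbers pair the samples. Of 154 named genes that passed, 117 passed with equal FPKM sums, 112 with limma-voom, 98 with quantile normalization, 77 with the block and 47 with no filter. None reversed its direction in any setting, though settings that leave the WT log2 changes as they were could not reverse one. Depth was 10137241 to 13122430 reads per WT library, so low genes rest on few reads.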
